A study of Mus musculus with 27 samples.

Results

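Inhibitory receptors of CD8 T cells were followed as a set of 10 genes, chosen by name from a list and found by symbol among the 35275 genes of the deposited tables: Pdcd1, Havcr2, Lag3, Tigit, Ctla4, Cd160, Cd244a, Entpd1, Cd38 and Btla. Each was measured by RNA-seq in 27 libraries of mouse P14 CD8 T cells, that is, cells carrying one transgenic T cell receptor that recognizes the gp33 peptide of lymphocytic choriomeningitis virus. There were 9 groups of 3 libraries, made of 3 genotypes at 3 stages. All animals carried P14, and the methods place these mice on a Rag2-/- background, in which B cells and T cells with other receptors do not develop while myeloid and NK cells remain. WT P14+ cells had no further transgene. Lin28bTg P14+ cells (lin28Tg) expressed Lin28b, an RNA-binding protein that blocks let-7 maturation, and Let-7Tg P14+ cells (let-7Tg) carried let-7g at the Col1a1 locus under doxycycline control. According to the methods, controls too received doxycycline in the drinking water, and young adult mice of both sexes were used. Naive cells (0 h) came from lymph nodes without culture. The 12 h cells were stimulated with anti-CD3 (2 μg/mL) and anti-CD28 (5 μg/mL), with 2 μg/mL doxycycline. The day 5 cells, or CTLs, were stimulated with anti-CD3 (2 μg/mL) and irradiated splenocytes, received 100 U/mL IL-2 at 48 h, and were kept in 2 μg/mL doxycycline. Stage, culture conditions and sequencing run cannot be told apart, and nothing in the labels says which libraries shared an animal or a day.

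Inhibitory receptors are induced when T cells are stimulated and restrain signaling from the T cell receptor or from costimulatory receptors. PD-1 (Pdcd1) recruits the phosphatase SHP-2, CTLA-4 (Ctla4) takes the B7 ligands from CD28, TIGIT competes with CD226 for Pvr, and BTLA and CD160 both bind HVEM (Tnfrsf14). Tim-3 (Havcr2) and LAG-3 accompany PD-1 on exhausted cells, 2B4 (Cd244a) binds CD48, and CD39 (Entpd1) and CD38 are ectoenzymes that degrade extracellular ATP and NAD.

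The genotypes differ in let-7, so the let-7 sequence and its possible sites in the members are shown first. RefSeq (GRCm38.p6) lists 12 loci of let-7 and miR-98 mature strands that share the let-7g seed, and 3 of them are printed here to show the shared bases 2 to 8, in capitals. The transgene encodes let-7g, let-7a differs from it outside the seed, and miR-98 is the family member with another name.
mmu-let-7g-5p: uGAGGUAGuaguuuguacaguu
mmu-let-7a-5p: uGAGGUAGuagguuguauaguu
mmu-miR-98-5p: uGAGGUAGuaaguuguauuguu
Matches were sought on the transcript strand, within the 3′ UTR, using for each gene the coding transcript of greatest length in GENCODE M21 (GRCm38). The letters were CTACCTC, which pairs with bases 2 to 8, or TACCTCA, which pairs with bases 2 to 7 and adds an A, and both overlap where CTACCTCA stands. Among 20934 genes with a 3′ UTR, 8.81% held the first, 9.63% the second and 14.6% either. Of the 10 members, Havcr2 held the first once and Pdcd1 the second once, and the other members held neither in this window. The sites are printed with the matching letters in capitals.
Havcr2: ctctgtgcctgCTACCTCtctataacatgt
Pdcd1: gcatgcccaggTACCTCAgtttttttcaac
The Havcr2 match lies at bases 978 to 984 of a 3′ UTR of 1809 bases, in the gene at chr11:46454935-46481255 on the plus strand. The Pdcd1 match lies at bases 618 to 624 of 1000, in the gene at chr1:94038305-94052553 on the minus strand. A match is a description of letters and does not show that let-7 binds there.

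Libraries held between 13862706 and 23591069 reads counted to genes, as recovered from the FPKM values (fragments per kilobase of gene, divided by the library total). Lin28b checked the labels: it lay between 9.94 and 67.9 FPKM in the 9 lin28Tg libraries and did not exceed 0.059 elsewhere. Col1a1, the locus of the let-7 transgene, lay between 9.06 and 62.8 FPKM in the let-7Tg libraries and reached at most 4.93 in the others. Cd3e was at 144 FPKM or more and Cd8a at 99.8 or more in all 27 libraries. The sum of 6 CD8 T cell markers was nevertheless lower in lin28Tg libraries at each stage, without overlap. It was 3120 to 3450 FPKM in naive, 1330 to 1660 in 12 h and 1620 to 1910 in day 5 lin28Tg cells, against 4110 to 4930, 1820 to 2250 and 1940 to 2440 in the other genotypes. Among markers of other cells, the naive lin28Tg libraries stood apart. The summed FPKM of 10 myeloid markers was 173, 786 and 443 in lin28Tg replicates 1 to 3, against 39.2 to 80.2 in WT and 36.3 to 76.4 in let-7Tg naive libraries. NK cell markers (33.5 to 95.8 against 13.8 to 31.2 in the other naive libraries) went the same way. Erythroid markers were also highest in lin28Tg (494 to 1990) and set WT (153 to 292) apart from let-7Tg (1.92 to 38.7). Cd4 was 9.71 to 56.4 FPKM in the naive lin28Tg libraries and 3.13 to 9.62 in the other naive libraries. The 7 B cell markers summed to between 358 and 448 FPKM in naive libraries of the 3 genotypes, with 3 to 6 of them above 3 reads, and the stromal markers to 10.5 at most in any library. At day 5 the myeloid sum was 3.58 to 11.4, with Lyz2 at 0.0807 FPKM or less and Csf1r at 0.021 or less, and the erythroid sum was 1.84 at most.

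All 10 members passed the filter on low values at every stage, and each changed at one step or the other in WT cells. From naive to 12 h, 5 members rose and 3 fell, where 71.1% of all genes tested were called (limma on log2 of scaled FPKM plus 0.5, adjusted p below 0.05 over all genes). On this scale the changes of genes with low levels are understated. From 12 h to day 5, 5 members rose and 4 fell, against 67.3% of all genes. Most genes changed with stage, so these counts are near the background.

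The receptors split into those that came up early and those that came up late. Pdcd1 was 0.888, 1.32 and 1.76 FPKM in the WT naive libraries, 66.7, 104 and 72.8 at 12 h, and 11.7, 9.37 and 1.80 at day 5. It therefore peaked at 12 h, rising by 5.61 and then falling by 3.72 on the log2 scale (limma, adjusted p = 1.63e-10 and 1.54e-07). WT replicate 3 stood below the other day 5 WT libraries. Tigit followed the same course, with 0.221 to 1.32 FPKM in naive WT libraries, 39.1 to 56.8 at 12 h and 23.7 to 31.9 at day 5. Lag3 rose from 1.46 to 6.22 FPKM to between 80.9 and 125 at 12 h (log2 difference 5.23) and was 82.7 to 201 at day 5, which overlaps the 12 h values. Ctla4 went up at both steps, from at most 0.525 FPKM in naive WT cells through 7.91 to 38.8 at 12 h to 149 to 273 at day 5, the highest level of any member in WT. The 12 h WT libraries spread widely for Ctla4, with replicate 2 the lowest.

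The late members were low at 12 h. Entpd1 was 0.268, 0.676 and 0.241 FPKM in WT at 12 h, values that rest on 4 to 12 reads, and 42.7, 39.6 and 21.3 at day 5. Its log2 difference of 5.22 was the largest late rise among the members in WT (limma, adjusted p = 1.68e-10). Cd244a rose by 2.84, Cd38 by 2.24 and Havcr2 by 2.23 from 12 h to day 5 (adjusted p = 2.1e-06, 4.97e-07 and 0.000565). Havcr2 was 0.17 to 1.3 FPKM in WT at 12 h and 1.63 to 8.89 at day 5. From naive to 12 h, Cd244a, Entpd1 and Cd38 fell by 1.17, 1.06 and 0.66, with adjusted p of 0.0135, 0.0228 and 0.046. WT naive replicate 1, which had the highest myeloid sum of its group, was also the highest of its group for these 3 genes. Without it their adjusted p values were 0.0743, 0.217 and 0.196. The call for Entpd1 was also lost without WT 12 h replicate 1 or 3 (0.0688 and 0.075), and that for Cd38 without WT naive replicate 2 or WT 12 h replicate 1 or 3 (0.0948, 0.184 and 0.0798). Limma-voom on the recovered reads called 5 members for this step, none of them lower.

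The HVEM receptors moved differently. Cd160 rose and returned, from 15.6 to 19.4 FPKM in naive WT cells to 35.7 to 61.2 at 12 h (log2 difference 1.37) and 14.5 to 21.7 at day 5 (fall of 1.32). Btla had the highest naive level of the members, at 26 to 28.3 FPKM in WT. It was 36.3 to 36.9 at 12 h and fell by 3.08 to day 5 (limma, adjusted p = 3.85e-07), to 2.30, 2.16 and 13.4 FPKM in replicates 1 to 3. WT replicate 3, low for Pdcd1, Havcr2, Cd244a, Entpd1 and Cd38 at day 5, was the library that kept most Btla.

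**Figure D1:**
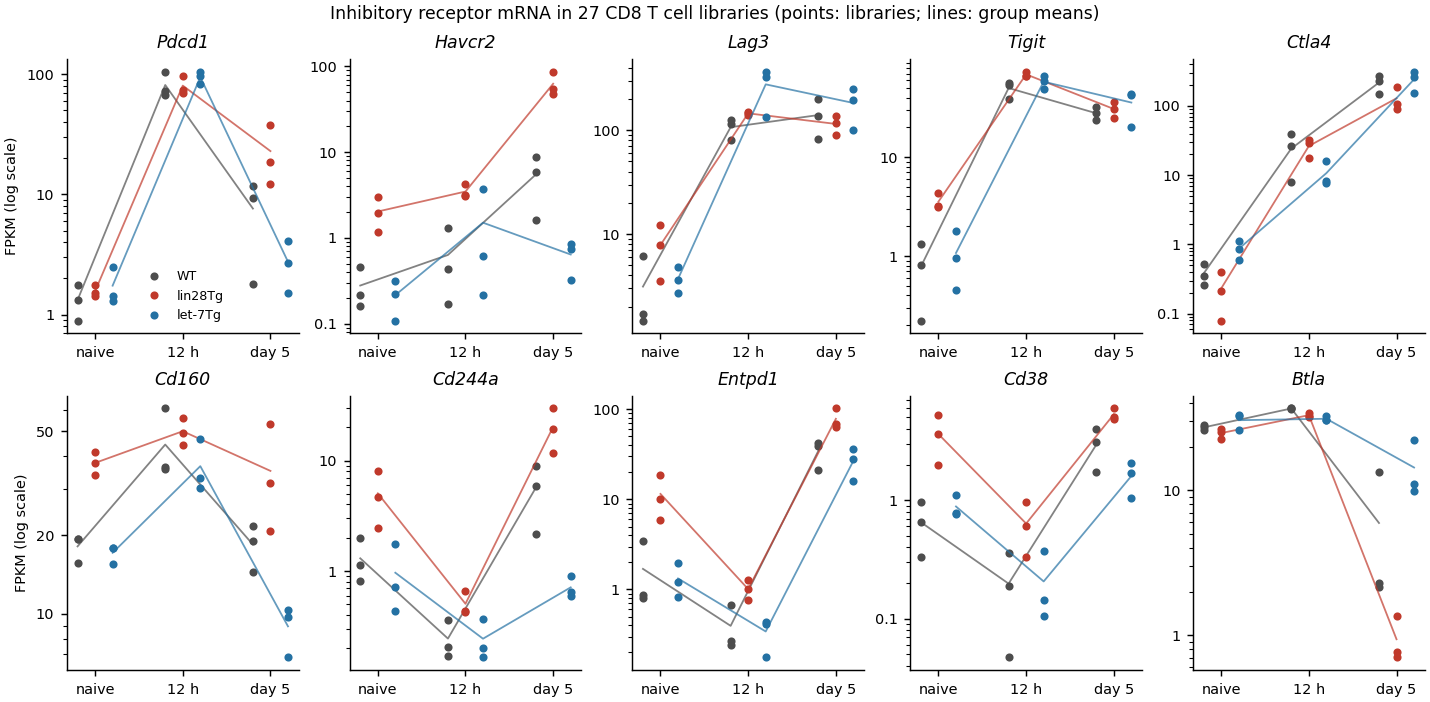
FPKM of the 10 genes (log scale, each panel with its own range) at the naive, 12 h and day 5 stages, with a point for each library, lines through the means of the 3 libraries, and colors for WT, lin28Tg and let-7Tg. Pdcd1 and Tigit peak at 12 h, Ctla4 and Entpd1 are highest at day 5, and at day 5 Havcr2 reaches 87 in lin28Tg and stays at 0.858 or less in let-7Tg.

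The other genotypes gave like counts for the same steps. In lin28Tg cells 5 members rose and 3 fell from naive to 12 h (73.5% of all genes called), and 5 rose and 4 fell to day 5 (66.1%). In let-7Tg cells 5 rose and 2 fell (69.5%), then 3 rose and 4 fell (66.8%). For let-7Tg the late step left out a pair of members that rose in both other genotypes: Havcr2 had a log2 difference of -0.48 (95% confidence interval -1.54 to 0.59) and Cd244a of 0.66 (-0.19 to 1.5). In lin28Tg cells the same step gave 3.94 for Havcr2 and 4.29 for Cd244a (limma, adjusted p = 5.6e-07 and 4.92e-09). A few of these calls rest on single libraries. Cd160 in lin28Tg lost its call from naive to 12 h without any 1 of 4 libraries (adjusted p 0.076 to 0.121) and from 12 h to day 5 without any 1 of 4 (0.0678 to 0.327). Entpd1 in let-7Tg lost its early call without any 1 of 3 libraries (0.0615 to 0.149), and Tigit in let-7Tg its late call without let-7Tg day 5 replicate 3 (0.125). Havcr2 gained an early call in let-7Tg without 12 h replicate 1 or 3 (0.00847 and 0.0497), Cd244a without naive replicate 2 (0.0431), and Lag3 a late one without 12 h replicate 1 (0.042).

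Whether a genotype difference itself changed between stages was tested as an interaction. None of the members was called by limma or limma-voom in any of the 4 such tests. For lin28Tg against WT, 8.11% of all genes were called between naive and 12 h and 6.49% between 12 h and day 5, with 4 members at an unadjusted p below 0.05 each time, where 21.1% and 19.7% of all genes had one. For let-7Tg against WT these shares were 0.0969% and 1.39%, with 1 and 5 members at an unadjusted p below 0.05, against 7.71% and 12.0% of all genes. The smallest adjusted p values were those of Cd244a (-2.18, 0.0623) and Havcr2 (-2.71, 0.066) for let-7Tg between 12 h and day 5. Without WT day 5 replicate 3 both passed (-2.68, adjusted p = 0.00788, and -3.32, 0.00932), as did Pdcd1 (-2.06, 0.0195) and Btla (2.59, 4.15e-05). Havcr2 also passed without WT 12 h replicate 2 (0.0427) or let-7Tg 12 h replicate 1 (0.024). For lin28Tg between 12 h and day 5, Pdcd1 passed without WT day 5 replicate 1 (2.22, 0.0428) or lin28Tg day 5 replicate 1 (2.15, 0.0402), Cd160 without the latter (1.04, 0.0464) and Btla without WT day 5 replicate 2 (-1.95, 0.0319). Between naive and 12 h, leaving out WT naive replicate 1 called Tigit (-1.51, 0.0287) and Entpd1 (-2.16, 0.0132), and leaving out lin28Tg naive replicate 1 called Entpd1 (-2.05, 0.0245) and Cd38 (-1.35, 0.0347). The shares of all genes called in these fits without a library are not given here. The gained calls therefore have no background beside them and are not read as particular to the members.

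In naive cells 6 members were higher in lin28Tg than in WT: Havcr2, Tigit, Cd160, Cd244a, Entpd1 and Cd38. None was lower, and 34.6% of all genes tested were called in that comparison. The median log2 difference of the 10 members was 1.37, and that of all genes tested was -0.04. Entpd1 was 5.91, 18.5 and 10.1 FPKM in lin28Tg replicates 1 to 3, against 3.41, 0.869 and 0.802 in WT and 1.95, 1.21 and 0.817 in let-7Tg. Its 3 lin28Tg values lay above every other naive library, with a log2 difference from WT of 2.47 (SE 0.48, limma, adjusted p = 0.00462). Havcr2 was 1.16, 2.97 and 1.97 in lin28Tg, against 0.162 to 0.459 in WT and 0.108 to 0.319 in let-7Tg, levels that rest on 4 to 19 reads in WT and let-7Tg. The groups did not overlap, and the log2 difference from WT was 1.63 (adjusted p = 0.0021). Cd38 was 2, 5.19 and 3.64 in lin28Tg and at most 1.11 in the other naive libraries (log2 difference from WT 1.76, adjusted p = 0.00262).

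Cd244a was 2.44, 8.06 and 4.64 FPKM in naive lin28Tg libraries and 0.435 to 1.97 in the other naive libraries. Its log2 difference from WT was 1.5 (adjusted p = 0.0226), a call lost without WT replicate 2 or 3 or lin28Tg replicate 2 or 3 (adjusted p 0.0587 to 0.0823). Tigit was 3.1, 3.21 and 4.34 in lin28Tg, 1.32, 0.221 and 0.808 in WT, and 1.81, 0.961 and 0.449 in let-7Tg (log2 difference from WT 1.71, adjusted p = 0.00747). Its levels rest on 3 to 20 reads in WT and 6 to 27 in let-7Tg. Cd160 was 41.4, 37.8 and 34.1 in lin28Tg, above the 15.6 to 19.4 of WT and the 15.5 to 17.9 of let-7Tg. Its log2 difference of 0.99 had the smallest adjusted p of the members in this comparison (0.000374). Lag3 was 3.53, 12.2 and 7.86 in lin28Tg and 6.22, 1.69 and 1.46 in WT, groups that overlapped (log2 difference 1.25, adjusted p = 0.0811). It passed without WT replicate 1 (1.81, 0.0118) or lin28Tg replicate 1 (1.70, 0.0266).

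No member was called between let-7Tg and WT naive cells by limma or limma-voom, where 0.934% of all genes were called. An unadjusted p below 0.05 was found for 1 member and for 14.6% of all genes. That member was Ctla4, at 0.598, 1.12 and 0.869 FPKM in let-7Tg and 0.353, 0.525 and 0.262 in WT, or 4 to 17 reads (log2 difference 0.60, adjusted p = 0.241). The widest interval was that of Lag3, from -0.75 to 1.51. Between lin28Tg and let-7Tg, 8 members were called (44.0% of all genes): the same 6 were higher in lin28Tg, while Ctla4 (-0.90, adjusted p = 0.00808) and Btla (-0.28, 0.0371) were lower. Ctla4 rested on 2 to 7 reads in lin28Tg and 4 to 8 in WT. It passed the filter on low values only through the let-7Tg libraries, where it was highest (10 to 17 reads). Its place in the test was therefore not independent of the group that was high. The Btla groups overlapped, at 26.6, 22.6 and 25.3 FPKM in lin28Tg and 32.6, 25.9 and 32.9 in let-7Tg, and its call was lost without lin28Tg replicate 2 or 3 or let-7Tg replicate 1 or 3 (0.0932 to 0.145).

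These naive differences have to be read beside the other cells in the lin28Tg libraries. Entpd1 and Cd38 are also made by myeloid cells, Havcr2 and Cd244a by myeloid and NK cells, and Tigit and Cd160 by NK cells. Within the lin28Tg naive group, replicate 2 was highest and replicate 1 lowest for the myeloid and NK sums and for Havcr2, Entpd1, Cd38, Cd244a and Lag3. Tigit (highest in replicate 3) and Cd160 (highest in replicate 1) did not follow that order. With the logarithm of the myeloid sum as a term beside genotype, an alternative chosen after seeing the data, 0 members were called between lin28Tg and WT by limma (0.527% of all genes), and Cd160 alone between lin28Tg and let-7Tg (1.27%). Cd160 kept its size in that fit, with log2 differences of 1.24 from WT (adjusted p = 0.0561) and 1.39 from let-7Tg (0.0306). No NK term was fitted, although the NK sums also differed, so the part of NK cells in Cd160 and Tigit was not tested. Entpd1 came to 0.12 from WT (adjusted p = 0.972), Havcr2 to 0.38 (0.779), Cd38 to 0.27 (0.873) and Tigit to 0.86 (0.804), and Cd244a turned to -0.74 (0.483). Lag3, not called without the term either, turned to -1.22 from WT (0.487) and -1.76 from let-7Tg (0.169). Genotype and myeloid sum went together in these libraries and can hardly be told apart.

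Without lin28Tg replicates 2 and 3, a second alternative chosen after seeing the data, Cd160 remained called against WT (log2 difference 1.18, adjusted p = 0.00543, with 6.87% of all genes called) and Cd160 and Havcr2 against let-7Tg (1.30, 0.00217 and 1.25, 0.0216, with 18.4% of all genes called). One lin28Tg library is then assumed to vary like the other groups. Entpd1 was 1.75 above WT in that fit (adjusted p = 0.121) and Cd38 1.17 (0.0712), and that remaining library had a myeloid sum of 173. How much of each naive difference came from other cells was not tested further. In bulk RNA, more cells of a type and more RNA per cell cannot be told apart, here or in the later comparisons.

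**Figure D2:**
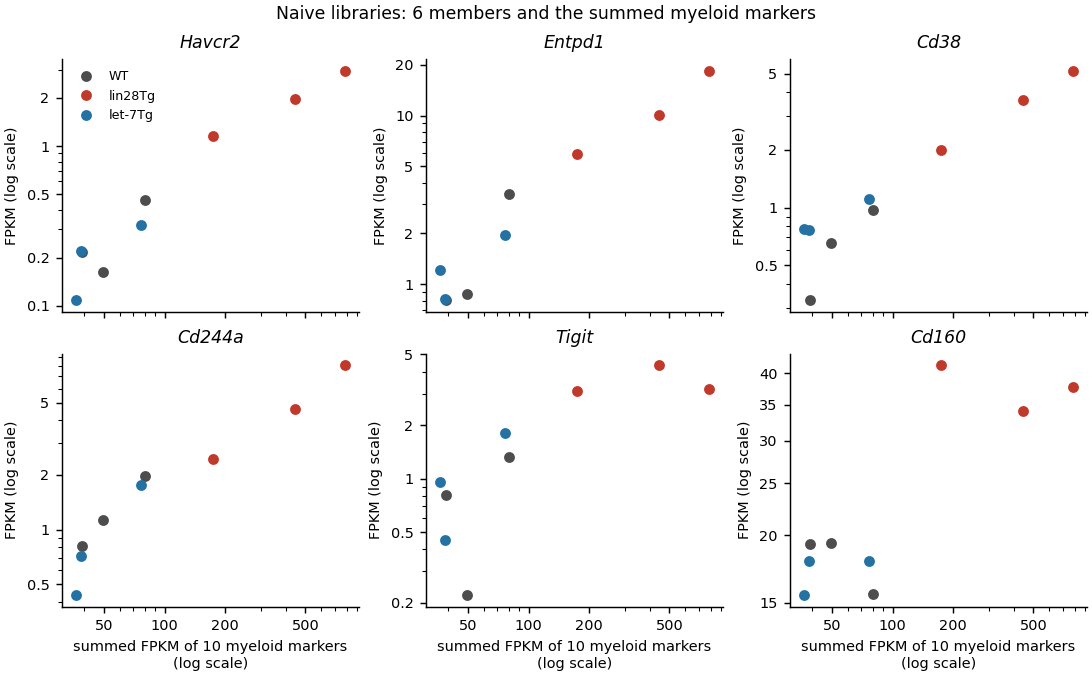
FPKM of 6 members (log scale) against the summed FPKM of 10 myeloid markers (log scale) in the 9 naive libraries, with a point for each library and colors for the genotypes. Havcr2, Entpd1, Cd38 and Cd244a are ordered like the myeloid sum within lin28Tg, from replicate 1 at 173 to replicate 2 at 786, while the 3 lin28Tg values of Cd160 lie between 34.1 and 41.4 with the highest in replicate 1.

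At 12 h few members were called between genotypes. Between lin28Tg and WT none was called by limma or limma-voom (8.47% of all genes called), while 6 members and 24.2% of all genes had an unadjusted p below 0.05. Between let-7Tg and WT none was called by either tool (3.23% of all genes), and 2 members had an unadjusted p below 0.05, near the 21.7% of all genes that did. Between lin28Tg and let-7Tg 1 member was called, against 30.8% of all genes, and limma-voom called 3. Erythroid sums at 12 h were 83.3 to 693 FPKM in lin28Tg, 26.1 to 103 in WT and 0.774 to 4.34 in let-7Tg, myeloid sums 9.07 to 16.2, 6.26 to 10.8 and 6.38 to 10.7, and NK sums 4.48 to 12.8, 4.13 to 5.3 and 3.49 to 6.28 in that order. Lin28Tg overlapped WT in all 3 sums and let-7Tg in the myeloid and NK sums. Their part in the 12 h differences was not tested. The called member was Entpd1, at 1.26, 1 and 0.771 FPKM in lin28Tg and 0.417, 0.433 and 0.176 in let-7Tg, or 14 to 21 and 3 to 7 reads. With 4 to 12 reads in WT, it passed the filter on low values mostly through the lin28Tg libraries. Its place in the test was therefore not independent of the group that was high. The groups did not overlap, the log2 difference was 0.85 (SE 0.22, adjusted p = 0.0157), and the call was lost without lin28Tg replicate 1 or 2 or let-7Tg replicate 3 (0.0551, 0.0531 and 0.0523). Against WT the Entpd1 difference was 0.77 (adjusted p = 0.0575), and 0.98 without WT replicate 2 (0.0226).

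Havcr2 was 4.21, 3.13 and 3.09 FPKM in lin28Tg at 12 h, above 0.432, 1.30 and 0.17 in WT (log2 difference 1.92, 95% confidence interval 0.66 to 3.18, adjusted p = 0.0679). This difference was called by limma with the replicate number as a block (0.0343) and in a fit of only the 6 libraries compared (0.0133). Same-numbered lin28Tg libraries did not deviate with those of the other genotypes at 12 h (correlations of -0.257 to 0.072). The block therefore has little ground for lin28Tg at this stage. In let-7Tg Havcr2 was 0.216, 3.69 and 0.614, so that replicate 2 alone reached the lin28Tg level. With all libraries lin28Tg exceeded let-7Tg by 1.42 (limma, adjusted p = 0.0847, with the replicate block 0.0438, by limma-voom 0.0429). Without let-7Tg replicate 2 the difference was 2.12 (0.00437). Cd244a (0.54, 0.0473) and Cd38 (0.81, 0.0458) also passed without it, and Cd38 passed without lin28Tg replicate 3 (0.88, 0.039). Lag3 was the member with the highest level in let-7Tg, at 134, 367 and 328 FPKM against 125, 80.9 and 115 in WT and 149, 146 and 141 in lin28Tg. Its difference between let-7Tg and WT was 1.23 (adjusted p = 0.0636). Without let-7Tg replicate 1 it was 1.68 (0.00481), Lag3 was then 1.23 lower in lin28Tg than in let-7Tg (-1.23, 0.0016), and Btla was called lower in let-7Tg than in WT (-0.30, 0.0432). Same-numbered WT and let-7Tg libraries deviated together at 12 h, and in a fit of these 6 libraries with the replicate number as a block, an alternative chosen after seeing the data, 2 of 8 members tested were called, against 12.4% of all genes. They were Btla (-0.27, adjusted p = 0.0402) and Ctla4 (-0.99, 0.0452), both lower in let-7Tg, while Entpd1 and Cd38 did not pass the filter on low values. Ctla4 was 16.2, 7.59 and 8.34 FPKM in let-7Tg and 38.8, 7.91 and 26.1 in WT, lower in each number but with overlap, and Btla was 32.4, 30.5 and 30.6 against 36.3, 36.9 and 36.9, without overlap. With the block over all 9 libraries neither was called. In lin28Tg Ctla4 was 17.6, 32 and 29.5 FPKM, above let-7Tg without overlap (log2 difference 1.31, limma, adjusted p = 0.088). A fit of only the 6 lin28Tg and let-7Tg libraries called it (1.32, 0.0225). Pdcd1 at 12 h was between 66.7 and 105 FPKM in the 9 libraries, with 95% confidence intervals of -0.41 to 0.37 for lin28Tg and -0.18 to 0.60 for let-7Tg against WT. Tigit was 66.1 to 73.3 in lin28Tg and 39.1 to 56.8 in WT, groups that did not overlap (log2 difference 0.46, adjusted p = 0.0806).

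**Figure D3:**
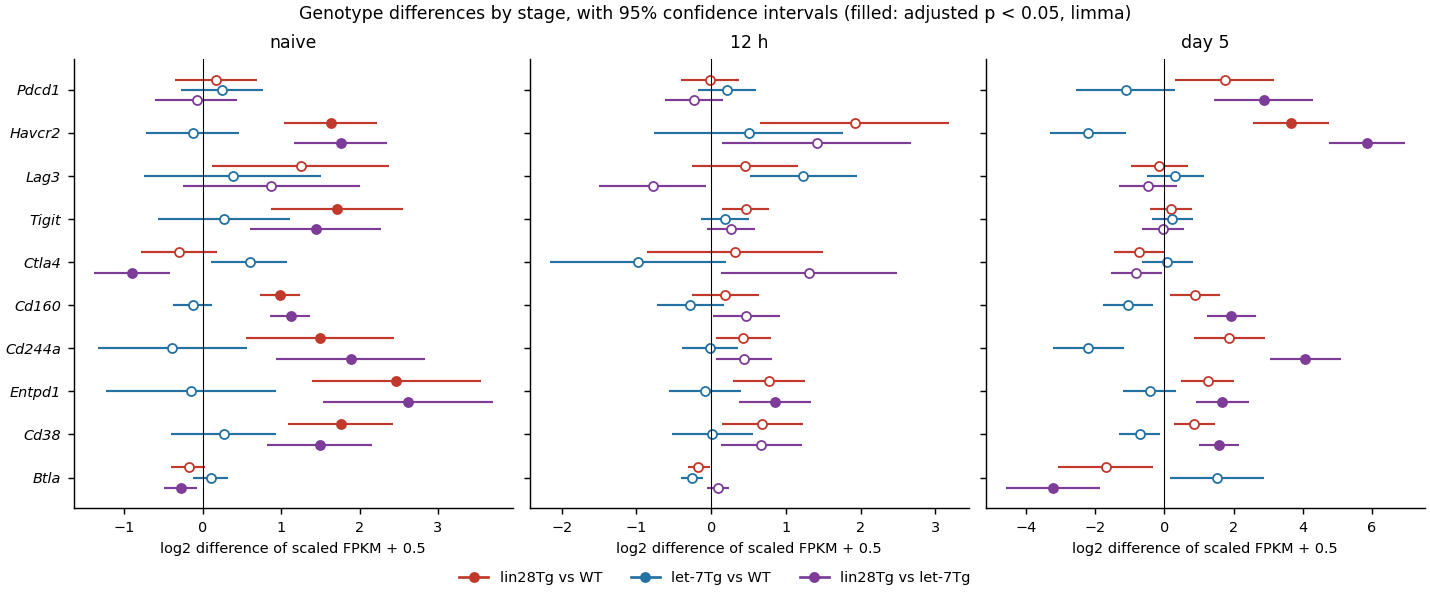
Log2 differences between genotypes for the 10 members at each stage (horizontal axis, on the log2 scale of scaled FPKM plus 0.5, with a range of its own in each panel), with lines for 95% confidence intervals and filled points where the adjusted p was below 0.05. The filled points are 6 and 8 for lin28Tg in naive cells, 1 at 12 h, and 1 and 7 at day 5, and no let-7Tg against WT point is filled.

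The largest log2 differences of members between genotypes were measured in day 5 CTLs. Between lin28Tg and let-7Tg 7 of 10 were called, against 21.7% of all genes: Pdcd1, Havcr2, Cd160, Cd244a, Entpd1 and Cd38 were higher in lin28Tg and Btla was lower. The median log2 difference of the 10 was 1.63, and that of all genes tested was 0.0023. Pdcd1, Havcr2, Cd160, Cd244a and Entpd1 were picked in earlier work as receptors high in these same lin28Tg libraries, so their direction is no independent evidence. Each genotype against WT gave fewer calls. Limma called Havcr2 alone between lin28Tg and WT (4.34% of all genes), and limma-voom called Havcr2 and Cd244a. No member was called between let-7Tg and WT by either tool (0.929%). An unadjusted p below 0.05 was found for 7 and 5 members, against 19.6% and 12.6% of all genes. Both comparisons use the same WT libraries.

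Same-numbered libraries deviated together at day 5 (correlations of 0.245 to 0.714), but the labels do not say what libraries of one number shared. With the number as a block, 8 members were called between lin28Tg and WT (13.4% of all genes), 3 between let-7Tg and WT (4.07%) and 9 between lin28Tg and let-7Tg (36.3%). The blocked calls against WT were Pdcd1, Havcr2, Cd160, Cd244a, Entpd1 and Cd38 higher and Ctla4 and Btla lower in lin28Tg, and Havcr2, Cd160 and Cd244a lower in let-7Tg.

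Havcr2, which encodes Tim-3, showed the widest separation. It was 47.4, 87 and 53.8 FPKM in lin28Tg replicates 1 to 3, 5.87, 8.89 and 1.63 in WT, and 0.739, 0.858 and 0.327 in let-7Tg. The 3 groups did not overlap, with lin28Tg highest and let-7Tg lowest. Lin28Tg exceeded WT by 3.66 (SE 0.48, adjusted p = 0.00694) and let-7Tg by 5.86 (SE 0.48, 0.000208) on the log2 scale. For let-7Tg against WT it was -2.20 (adjusted p = 0.0765, blocked 0.0165), and without WT replicate 3 it was -2.80 (0.00738). The lin28Tg level came with a myeloid sum of 7.54 to 11.4 FPKM, against 3.97 to 5.75 in WT, and Lyz2 did not exceed 0.0375 in lin28Tg. The sum of 5 NK markers was 63.5 to 161 FPKM in lin28Tg, 10.6 to 43.7 in WT and 3.01 to 6.23 in let-7Tg. Only 2 of these 5 were above 3 reads in each day 5 library. The part of either sum in the Havcr2 difference was not tested.

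Cd244a, which encodes the CD48 receptor 2B4, was 11.6, 29.8 and 19.1 FPKM in lin28Tg, 5.86, 8.86 and 2.18 in WT, and 0.896, 0.646 and 0.592 in let-7Tg. Again the groups did not overlap. Lin28Tg exceeded let-7Tg by 4.08 (SE 0.45, adjusted p = 0.000595), and the differences from WT were 1.88 for lin28Tg (0.0516, blocked 0.0201) and -2.20 for let-7Tg (0.0643, blocked 0.0284). Limma-voom called the difference of lin28Tg from WT (1.99, adjusted p = 0.0487). The call against WT was also made for lin28Tg without WT replicate 2 (2.27, 0.0454) or lin28Tg replicate 1 (2.24, 0.0347), and for let-7Tg without WT replicate 3 (-2.69, 0.0133). The NK marker sums were ordered like Cd244a between genotypes, but not within lin28Tg, where they were 97, 63.5 and 161 in replicates 1 to 3, lowest in the library with the highest Cd244a. Klrb1c made up most of the sum, at 60.8 to 158 in lin28Tg, and Ncr1, another of these markers, did not exceed 0.0896 in any day 5 library. The part of these genes in the Cd244a difference was not tested.

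Pdcd1 at day 5 was 12.2, 38 and 18.5 FPKM in lin28Tg, 11.7, 9.37 and 1.80 in WT and 2.67, 4.07 and 1.52 in let-7Tg. Every lin28Tg library lay above every WT library, but lin28Tg replicate 1 by little. The log2 difference was 2.87 (SE 0.63, adjusted p = 0.012) for lin28Tg against let-7Tg and 1.74 (95% confidence interval 0.31 to 3.18, adjusted p = 0.17, blocked 0.0448) against WT. Cd160 was 20.8, 53.1 and 31.7 in lin28Tg, 19, 21.7 and 14.5 in WT and 6.8, 10.3 and 9.74 in let-7Tg. Lin28Tg replicate 1 lay within the WT range, and the let-7Tg libraries lay below all others. The difference was 1.94 (SE 0.32, adjusted p = 0.00322) for lin28Tg against let-7Tg, 0.89 (0.166, blocked 0.0393) for lin28Tg against WT, and -1.05 (0.179, blocked 0.0449) for let-7Tg against WT. Without lin28Tg replicate 1 Cd160 was called against WT (1.22, 0.0436).

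The ectoenzymes were also higher in lin28Tg than in let-7Tg. Entpd1 was 63.6, 103 and 68.5 FPKM in lin28Tg, 42.7, 39.6 and 21.3 in WT and 28.1, 36.4 and 15.9 in let-7Tg. Its lin28Tg libraries lay above all others, while WT and let-7Tg overlapped. The log2 difference was 1.68 (SE 0.34, adjusted p = 0.00783) against let-7Tg and 1.25 (0.0765, blocked 0.00793) against WT. Cd38 was 5.07, 4.87 and 5.98 in lin28Tg, 3.08, 4 and 1.73 in WT and 2.05, 1.71 and 1.04 in let-7Tg. It was 1.58 higher in lin28Tg than in let-7Tg (SE 0.26, adjusted p = 0.00333) and 0.86 higher than in WT (0.11, blocked 0.0466).

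Btla ran opposite to the other called members. It was 1.35, 0.703 and 0.764 FPKM in lin28Tg, 2.30, 2.16 and 13.4 in WT, and 11.1, 9.91 and 22.1 in let-7Tg. Lin28Tg libraries lay below all others, and WT replicate 3 lay within the let-7Tg range. The B cell markers at day 5 summed to 31.9 to 142 FPKM in lin28Tg, 190 to 241 in WT and 178 to 248 in let-7Tg. In each library 3 or 4 of these markers were above 3 reads. Their part in the Btla difference was not tested. The log2 difference was -3.23 (SE 0.61, adjusted p = 0.00578) for lin28Tg against let-7Tg and -1.70 (0.162, blocked 0.049) against WT. For let-7Tg against WT it was 1.52 (0.328), and 2.32 without WT replicate 3 (0.0169).

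Lag3, Tigit and Ctla4 were not called between genotypes at day 5 without the block. Lag3 was 137, 117 and 90.8 FPKM in lin28Tg, 201, 136 and 82.7 in WT and 252, 197 and 99.5 in let-7Tg, with replicate 3 the lowest in each genotype. Its log2 difference between lin28Tg and let-7Tg was -0.48 (95% confidence interval -1.31 to 0.35, blocked adjusted p = 0.0308). Ctla4 was 189, 108 and 90 in lin28Tg, 273, 231 and 149 in WT and 314, 259 and 154 in let-7Tg. In every replicate number lin28Tg was the lowest, with a difference of -0.73 from WT (adjusted p = 0.258, blocked 0.00617) and -0.81 from let-7Tg (0.109, blocked 0.00108). Ctla4 was called against let-7Tg without lin28Tg replicate 1 (-1.11, 0.0393) or let-7Tg replicate 3 (-1.07, 0.0407). Tigit was 20.3 to 43.9 FPKM in the 9 libraries, and its interval for lin28Tg against let-7Tg ran from -0.64 to 0.56.

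**Figure D4:**
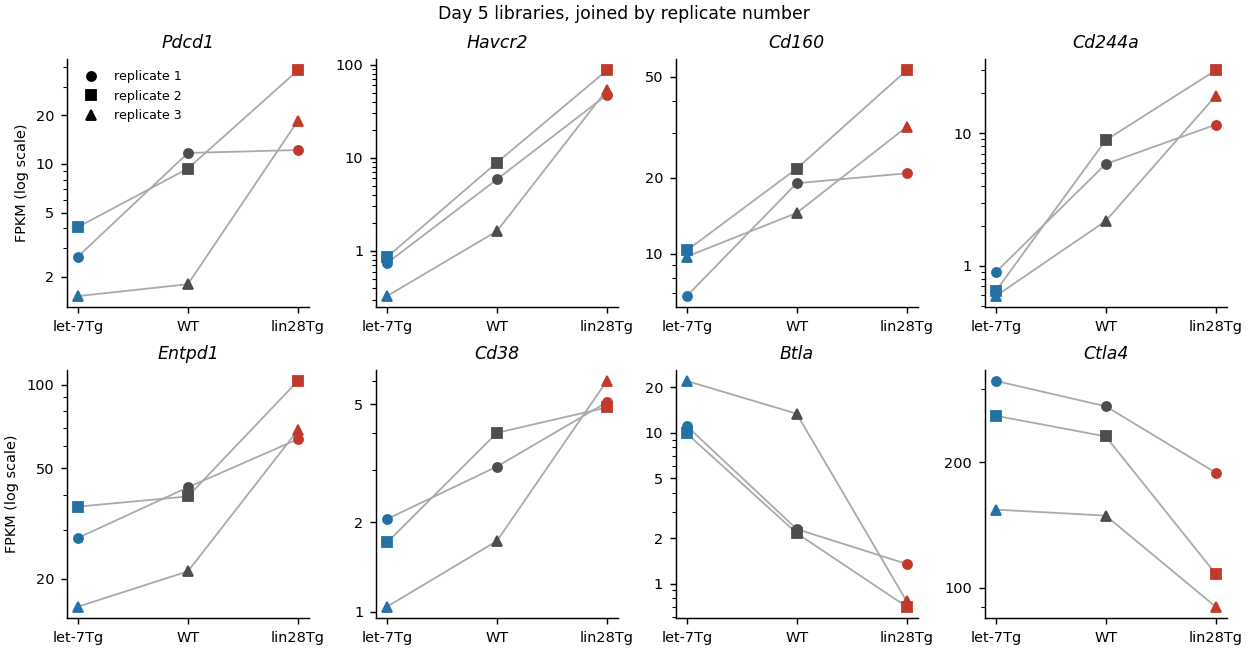
FPKM of 8 members in the day 5 libraries (log scale, a range of its own in each panel), ordered let-7Tg, WT, lin28Tg, with a symbol for each replicate number and gray lines joining libraries of one number. Havcr2 climbs from let-7Tg to lin28Tg in each of the 3 numbers, and Btla and Ctla4 descend in each of the 3.

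The ligands and binding partners of the members were measured in the same T cells. Of 13 listed, 10 or 11 were tested at each stage. Let-7Tg against WT called none in naive cells, none at 12 h and 1 at day 5, where 0.934%, 3.23% and 0.929% of all genes were called. In naive cells 7 were higher and 2 lower in lin28Tg than in WT, where the myeloid sums also differed (173 to 786 against 39.2 to 80.2 FPKM), with Pdcd1lg2, a PD-1 ligand made by myeloid cells, at 4.59 ± 0.895 (SD, n = 3) against 1.54 ± 0.401 FPKM and Ceacam1, a Tim-3 partner, at 2.07 ± 1.07 against 0.473 ± 0.2. Their log2 differences were 1.28 and 1.29 (limma, adjusted p = 0.00138 and 0.00959). Over all genes 34.6% were called in that comparison. At 12 h 2 of 10 were higher and 2 lower in lin28Tg than in let-7Tg, against 30.8% of all genes. Pvr, the TIGIT ligand, was 13.9 ± 0.959 in lin28Tg, 10 ± 0.866 in WT and 9.09 ± 1.4 in let-7Tg, and Cd274, which encodes PD-L1, was 36.5 ± 3.82 in lin28Tg and 87.8 ± 24.3 in let-7Tg. At day 5 the same comparison gave 2 higher and 4 lower of 11, against 21.7% of all genes, with a list median of -0.30. Pvr was 25.6 ± 1.27 in lin28Tg, 15.9 ± 2.04 in WT and 10.5 ± 1.61 in let-7Tg (log2 difference of lin28Tg from WT 0.73, adjusted p = 0.0195), and Cd80, a CTLA-4 ligand, was 12.3 ± 2.78 in let-7Tg and 3.9 ± 0.89 in WT (1.49, 0.0376).

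Among receptors and ligands that compete for the same partners, Cd28, the costimulatory receptor that shares its ligands with CTLA-4, was lower in lin28Tg than in let-7Tg at each stage. It was 31.8 ± 4.88 FPKM in lin28Tg and 62.3 ± 3.66 in let-7Tg naive cells (log2 difference -0.97, adjusted p = 0.000168). At 12 h it was 81.4 ± 15.8 and 148 ± 19.3 (-0.85, 0.00826), and at day 5 85.6 ± 16.2 and 136 ± 29.7 (-0.55, 0.0416). Cd96, which shares Pvr with TIGIT, was 1.35 higher in lin28Tg than in let-7Tg at 12 h (0.00755), and Tnfsf14, an HVEM ligand, 0.67 higher in naive cells (0.0136). Of the 5 listed, lin28Tg against WT called 2 lower in naive cells and none later, where 34.6%, 8.47% and 4.34% of all genes were called. Let-7Tg against WT called none, where 0.934%, 3.23% and 0.929% of all genes were called. Lin28Tg against let-7Tg called 1 higher and 1 lower in naive cells, 2 and 1 at 12 h, and 0 and 1 at day 5, where 44.0%, 30.8% and 21.7% of all genes were called.

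Of the adaptors and phosphatases through which these receptors signal, 15 were tested, and none was called between let-7Tg and WT at any stage. Of all genes, 0.934%, 3.23% and 0.929% were called in that comparison in naive, 12 h and day 5 cells. Lin28Tg against WT called 3 higher and 1 lower in naive cells, 2 lower at 12 h and 1 lower at day 5. Lin28Tg against let-7Tg called 3 higher and 2 lower in naive cells, 1 and 3 at 12 h, and 5 and 1 at day 5, with a list median log2 difference of 0.18 at day 5. The shares of all genes called were 34.6%, 8.47% and 4.34% against WT and 44.0%, 30.8% and 21.7% against let-7Tg, so the naive and 12 h counts against let-7Tg were not above the background. Ptpn6 (SHP-1) at day 5 was 100 ± 3.89 FPKM in lin28Tg, 174 ± 28.1 in WT and 254 ± 22.1 in let-7Tg, so it was lower in lin28Tg than in WT (-0.73, adjusted p = 0.0195). Inpp5d (SHIP-1) was 76.7 ± 5.15 in lin28Tg and 56.3 ± 3.72 in let-7Tg (0.55, 0.00771). Ptpn22 and Dok2 led at 12 h (-1.06 and 0.82 for lin28Tg against let-7Tg, adjusted p = 0.000701 and 0.00128), and Dok1 and Sh2d1a, the adaptor of 2B4, in naive cells (0.84 and -0.68, 0.000214 and 0.00183).

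In the ATP and adenosine path around Entpd1 and Cd38, 9 or 10 genes were tested. Nt5e (CD73), which takes the product of CD39 on to adenosine, was 1.44 ± 0.364 FPKM in lin28Tg and 0.347 ± 0.118 in let-7Tg at 12 h (log2 difference 1.19, adjusted p = 0.00115). At day 5 it was 1.66 ± 0.383 in lin28Tg, 3.87 ± 1.08 in WT and 5.32 ± 0.6 in let-7Tg, lower in lin28Tg than in WT (-0.96, 0.0406), whereas Entpd1 was highest there. Dpp4 (CD26), which anchors adenosine deaminase, was 56.6 ± 7.57, 101 ± 5.12 and 118 ± 22 in the same order (lin28Tg against WT -0.78, 0.0162). Bst1 and Adora2a were higher in naive lin28Tg than in WT (1.65 and 0.46, 0.00016 and 0.00424), where the myeloid sums were 173 to 786 against 39.2 to 80.2 FPKM, and their part in these differences was not tested. Bst1 is also made by myeloid cells. Slc29a1 was lower in lin28Tg than in let-7Tg at 12 h (-0.44, 0.00196). The list gave 5 higher and 1 lower for lin28Tg against let-7Tg in naive cells, 2 and 2 at 12 h, and 2 and 3 at day 5. Against WT lin28Tg gave 5 higher in naive cells, 2 higher at 12 h, and 1 higher and 2 lower at day 5, and let-7Tg gave 1 higher at 12 h. Of all genes, 44.0%, 30.8% and 21.7% were called for lin28Tg against let-7Tg and 34.6%, 8.47% and 4.34% for lin28Tg against WT. For let-7Tg against WT the shares were 0.934%, 3.23% and 0.929%.

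Transcription factors tied to these receptors split at each stage. At day 5, 18 were tested and lin28Tg against let-7Tg called 5 higher and 6 lower. Tcf7, which encodes TCF1 and marks memory-like cells, was 6.77 ± 3.33 FPKM in lin28Tg, 150 ± 29.6 in WT and 207 ± 34.7 in let-7Tg (lin28Tg against WT -4.44, adjusted p = 0.000974). Bach2, a repressor that restrains effector genes, was 8.9 ± 1.85, 18.8 ± 1.8 and 23.6 ± 3.58 (lin28Tg against let-7Tg -1.26, 0.00129). At 12 h 6 were higher and 4 lower of 19, led by Id3, at 48 ± 4.59 in lin28Tg, 74.1 ± 6.34 in WT and 103 ± 10.8 in let-7Tg, and Nfatc1 (let-7Tg against WT 0.56, 0.0255). Against WT, lin28Tg gave 9 higher and 6 lower in naive cells, 3 and 3 at 12 h, and 1 and 4 at day 5, and let-7Tg 2 higher at 12 h. The shares of all genes called for lin28Tg were 34.6%, 8.47% and 4.34% against WT and 44.0%, 30.8% and 21.7% against let-7Tg. For let-7Tg against WT the shares were 0.934%, 3.23% and 0.929%. In naive cells 8 were higher and 4 lower in lin28Tg than in let-7Tg, and Bach2 (-1.06) and Tox (-0.65), a regulator of exhaustion, were lower in lin28Tg than in WT (7.4e-05 and 0.000399). The myeloid sums were 173 to 786 FPKM in the naive lin28Tg libraries and 39.2 to 80.2 in WT, and their part in the naive counts was not tested.

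Of 16, 12 and 13 other inhibitory receptors tested in naive, 12 h and day 5 cells, lin28Tg against let-7Tg called 7, 2 and 2 higher and 5, 3 and 4 lower, where 44.0%, 30.8% and 21.7% of all genes were called. At day 5 Slamf6 was 0.946 ± 0.514 FPKM in lin28Tg, 7.4 ± 1.74 in WT and 13.2 ± 3.32 in let-7Tg (lin28Tg against WT -2.45, adjusted p = 0.00435). Tnfrsf9, listed here though it is a costimulatory receptor, was 652 ± 124, 316 ± 66.3 and 166 ± 14.4, called against WT in lin28Tg (1.10, 0.013) and in let-7Tg (-0.96, 0.0455). At 12 h Klrc1, which encodes the NK receptor NKG2A, was 68.4 ± 18.9, 26.9 ± 4.1 and 9.82 ± 3.6, likewise called against WT in both (1.29, 0.0195 and -1.49, 0.0287). Vsir (VISTA) was lower in lin28Tg than in WT at 12 h (-0.70, 0.0262). Against WT, lin28Tg gave 7 higher and 5 lower in naive cells, 2 and 1 at 12 h, and 1 and 3 at day 5 (34.6%, 8.47% and 4.34% of all genes). Let-7Tg against WT gave 1 higher, then 2 higher and 1 lower, then 1 lower (0.934%, 3.23% and 0.929% of all genes). In naive cells Pecam1 and Cd72 were lower in lin28Tg than in WT (-0.76 and -0.67, adjusted p = 3.14e-05 and 0.000246), and Cd72 was higher in let-7Tg than in WT (0.43, 0.0324). The naive counts went with the higher myeloid sums of the lin28Tg libraries, whose part in them was not tested.

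The genes whose levels followed each member most closely over the 27 libraries differed from member to member. As a description over 14453 genes, with Pearson r of log2 values, Pdcd1 was followed most closely by Mmd (0.987), Btg3 (0.972) and Slc25a3 (0.966). Havcr2 was followed by Gem (0.933), Pvr (0.931) and Alpk2 (0.930), so that the gene of the TIGIT ligand ranked high for Tim-3. Lag3 had Il2ra (0.974), which encodes the high-affinity IL-2 receptor chain, Uhrf1bp1 (0.973) and Slc9a5 (0.967). For Tigit they were Fbxw8 (0.977), Slco4a1 (0.976) and Dnph1 (0.974), and for Ctla4 Hif1a (0.978), Ak4 (0.976) and Tnfrsf18 (0.976). Cd160 had the lowest values, with Dnajc1 (0.914), Tmem39a (0.896) and Pdxk (0.892). Cd244a was followed by the chemokine receptor gene Ccr2 (0.968), Klrb1c (0.967) and Lat2 (0.963). The ectoenzymes had Hpse (0.986), Endod1 (0.984) and Fgl2 (0.983) for Entpd1, and Dbn1 (0.974), Plekhf1 (0.960) and Tspan9 (0.956) for Cd38. Btla had Meis3 (0.955), Tgfbrap1 (0.946) and the lymph node homing receptor gene Ccr7 (0.940). The libraries of a stage share their cell state and culture, and the r values include the differences between stages.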

How the data were processed

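RNA-seq of 27 libraries (9 groups of 3 biological replicates, according to the methods) was used. Per the submitters' notes, the authors aligned reads to GRCm38 with TopHat2 2.0.9 and Bowtie2 2.0.6 and counted them with HTSeq 0.6.1. The authors deposited FPKM per gene and library, without scaling between libraries. Their tables also hold group means of read counts, log2 fold changes and p-values, which were not used. Reads were recovered from the FPKM values: all 462839 values above 0 (100%), in 25144 of 35275 genes, came out as whole reads, and library totals were met within 193 reads.

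Each stage was fitted with limma 3.58.1 (R 4.3.3), taking scaled FPKM plus 0.5 on the log2 scale, with a term per genotype, an intensity trend and Benjamini-Hochberg adjustment over all genes tested (threshold 0.05). Scaling used trimmed means of log ratios (30% of ratios and 5% of levels). A gene was tested if 3 or more libraries reached a level worth 10 reads in a library of median depth and its reads summed to 15 or more, which 13277 naive, 12239 12 h and 13030 day 5 genes met. Stages and interactions were fitted over all 27 libraries (14453 genes). SD and SE are over 3 libraries and from the model. Steps outside R ran in Python 3.11.15 with numpy 2.4.6 and pandas 2.3.3. The fit was tested on simulated data.

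The members and lists were chosen with earlier results of these data known. Named besides the members were, per companion list and stage, the 2 genes of lowest adjusted p among those called, and the 3 genes most like each member. Sh2d1b1, Lilrb4a and Lilrb4b were not found by symbol. The replicate numbers were checked for pairing by correlating deviations of same-numbered libraries from their group means: at day 5 all 9 correlations exceeded 0.1 (0.245 to 0.714), so the block is given there, and at 12 h those of WT with let-7Tg did (0.24 to 0.549), so it is given for that pair. Blocked calls of lin28Tg at 12 h are quoted too, although none of its correlations there exceeded 0.1. Alternatives were the pseudocount, the filter, the scaling, the block, limma-voom on recovered reads, fits of 6 libraries and leaving out each library, and, added after seeing the data, a myeloid term, the block in a fit of the WT and let-7Tg 12 h libraries, and leaving out 2 naive lin28Tg libraries.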

Additional observations from a re-analysis of the deposited data

How the results depend on the processing

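Of 286 recomputed counts of called members, 249 stayed within 1.5 times the reported count and 37 did not. Of 2837 recomputed log2 differences of single members, 2696 kept their direction and their side of the threshold or were called in neither fit, 70 lost a call, 68 gained one and 3 reversed. In 67 the sign differed while neither value was called. The reversals came with the myeloid sum as a term in naive cells: Cd244a for lin28Tg against WT (-0.74) and against let-7Tg (-0.49) and Cd38 against let-7Tg (-0.09). That term left 0 members called for lin28Tg against WT and 1 against let-7Tg, and leaving out lin28Tg naive replicates 2 and 3 left 1 and 2. Ctla4 did not pass the filter without those libraries, so that 9 members were tested.

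The replicate block called 8 members for lin28Tg against WT at day 5 and 3 for let-7Tg against WT. At 12 h the 3 correlations above 0.1 of 9 were those of WT with let-7Tg (0.24, 0.549 and 0.434), while those with lin28Tg ran from -0.257 to 0.072. The replicate block in a fit of the 6 WT and let-7Tg libraries called 2 of 8 members. Over all 9 libraries of that stage it called 2 for lin28Tg against WT and 3 for lin28Tg against let-7Tg. It called 1 for the change of lin28Tg against WT from naive to 12 h and 2 for that of let-7Tg from 12 h to day 5. In naive cells 3 of 9 correlations exceeded 0.1 (-0.257 to 0.475), and at day 5 the block gave 9 calls for lin28Tg against let-7Tg, within 1.5 times the 7 reported. Limma-voom called 3 for lin28Tg against let-7Tg at 12 h, 2 for lin28Tg against WT at day 5 and 5 from naive to 12 h in WT. Fits of the 6 libraries compared called 1 for lin28Tg against WT and 3 against let-7Tg at 12 h. A pseudocount of 1 FPKM called 1 for the change of lin28Tg against WT from 12 h to day 5. The cause of these changes was not tested.

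Leaving out each library in turn gave ranges of called members. The shares of all genes called in those fits are not given here, so the ranges have no background beside them. Lin28Tg against WT had 5 to 7 in naive cells, 0 to 1 at 12 h and 1 to 3 at day 5. Let-7Tg against WT had 0 to 0, 0 to 2 and 0 to 3, and lin28Tg against let-7Tg 6 to 7, 0 to 4 and 7 to 8. From naive to 12 h, WT had 5 to 8, lin28Tg 7 to 8 and let-7Tg 6 to 8. From 12 h to day 5 these were 9 to 9, 8 to 9 and 6 to 8. The changes of lin28Tg against WT had 0 to 2 at both steps, and those of let-7Tg 0 to 0 and then 0 to 4. Depth limits Ctla4 in naive cells (2 to 17 reads), Tigit in naive WT and let-7Tg cells (3 to 27), and Entpd1 (3 to 21) and Cd38 (2 to 46) at 12 h.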
